A study of Mus musculus with 35 samples.

Results

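The Hox cluster genes were examined in mouse retinae with ChIP-Seq peak lists for Brg1, H3K4me3 and H3K27Ac and with lists of H3K27me3 islands. The group was given as a list of 38 Hox genes from the 4 Hox clusters that are thought to be silent in retina. These 38 genes are part of 14823 coding genes whose start could be placed on the build of the lists. The Hoxa and Hoxb clusters held 10 of the genes each, and the Hoxc and Hoxd clusters held 9 each.

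Wild-type retinae were profiled at P0, P14 and P21 with 2 libraries per mark and stage, and at P12 with 1 library each for H3K4me3 and H3K27Ac and 2 for H3K27me3. Brg1-deficient retinae, labelled BRG1 -/-, were profiled at P12 with 2 libraries for H3K27Ac, 1 for H3K4me3 and 1 for H3K27me3. According to the study, they came from Chx10-Cre; Brg1 Lox/Lox mice, in which Cre acts in retinal progenitor cells in a mosaic pattern, so wild-type cells remained in the tissue. Brg1 itself was profiled with an anti-FLAG antibody in 1 library of P0 retinae from mice with a FLAG tag knocked into the Brg1 gene. The labels do not say whether replicates came from separate animals, so p-values measure the spread between libraries only. Antibody AB1 was used for H3K27me3 at P0, P14 and P21 and antibody AB3 at P12, so ages were compared within AB1 and genotypes within AB3, and ranges over all 9 H3K27me3 libraries are descriptions only.

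Hox genes encode homeodomain transcription factors that give cells of the trunk, hindbrain and limbs their position along the body axis. They lie side by side in 4 clusters, and genes of the same number in different clusters are paralogs. The eye forms from the anterior neural plate, where Hox genes are not switched on. Outside their domains of expression the clusters are textbook targets of Polycomb repressive complex 2, which deposits H3K27me3. H3K4me3 marks promoters, and a promoter that carries both marks is called bivalent. H3K27Ac marks active promoters and enhancers. Brg1 (Smarca4) is the ATPase of the BAF chromatin remodeling complex.

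In P0 retinae the Hox clusters carried H3K27me3 from end to end, weak H3K4me3 peaks at most gene starts, Brg1 peaks at 22 of 38 starts and no H3K27Ac peak. At P14 and P21 the H3K27me3 islands were still present in every library, whereas most of the H3K4me3 peaks were absent. Only the starts of Hoxa4, Hoxa13, Hoxd1 and Hoxd8 had an H3K4me3 peak in all 8 H3K4me3 libraries. The plot of the share of starts with each mark shows these counts by library.

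**Figure D1:**
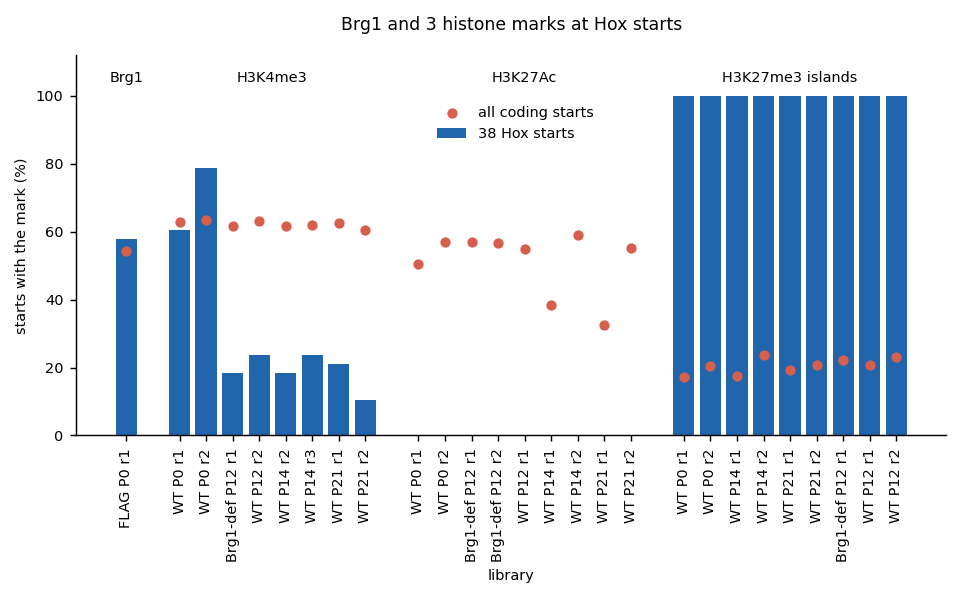
Share of the 38 Hox starts (bars, %) and of 14823 coding starts (points, %) with a Brg1, H3K4me3 or H3K27Ac peak within 1 kb, or inside an H3K27me3 island, in each library (r, replicate number). Hox starts went from 60.5% and 78.9% with H3K4me3 at P0 to between 10.5% and 23.7% at later ages, stood at 0% for H3K27Ac and at 100% for H3K27me3.

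The promoter sequences of 7 members are given because they stand for the 3 H3K4me3 patterns described below. A pattern counts peaks within 1 kb of the start, so a peak need not overlap the bases printed. The sequences are those of RefSeq on GRCm38.p6, from 250 bases before to 50 bases after the start, and 22 of the 38 members matched an entry. Capitals mark CG dinucleotides (CpG), which read the same on both strands. CpG-rich promoters are where both H3K4 methyltransferases and Polycomb complexes commonly sit.

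The starts of Hoxa13, Hoxd1 and Hoxd8 had an H3K4me3 peak within 1 kb in all 8 libraries.
Hoxa13, chr6:52260831-52261130 (- strand): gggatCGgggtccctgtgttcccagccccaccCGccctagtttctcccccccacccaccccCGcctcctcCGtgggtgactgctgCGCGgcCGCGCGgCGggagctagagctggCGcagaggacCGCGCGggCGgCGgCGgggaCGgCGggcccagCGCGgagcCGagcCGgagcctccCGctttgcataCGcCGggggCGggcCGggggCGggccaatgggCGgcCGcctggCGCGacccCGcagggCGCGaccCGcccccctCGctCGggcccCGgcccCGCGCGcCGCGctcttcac
Hoxd1, chr2:74762730-74763029 (+ strand): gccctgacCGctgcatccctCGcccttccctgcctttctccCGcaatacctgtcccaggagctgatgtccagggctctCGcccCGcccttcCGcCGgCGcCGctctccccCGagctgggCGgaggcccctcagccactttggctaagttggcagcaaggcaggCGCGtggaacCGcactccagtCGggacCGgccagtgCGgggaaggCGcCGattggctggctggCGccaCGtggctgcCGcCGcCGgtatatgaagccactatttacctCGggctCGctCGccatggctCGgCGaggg
Hoxd8, chr2:74704365-74704664 (+ strand): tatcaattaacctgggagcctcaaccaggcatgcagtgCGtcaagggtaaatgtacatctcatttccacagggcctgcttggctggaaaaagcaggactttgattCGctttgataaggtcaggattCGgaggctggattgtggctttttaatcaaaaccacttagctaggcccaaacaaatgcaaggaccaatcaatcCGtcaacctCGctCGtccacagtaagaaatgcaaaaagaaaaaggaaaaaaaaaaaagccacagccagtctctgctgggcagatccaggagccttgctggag
The starts of Hoxa5 and Hoxb4 had such a peak in both P0 libraries and in no other library.
Hoxa5, chr6:52204538-52204837 (- strand): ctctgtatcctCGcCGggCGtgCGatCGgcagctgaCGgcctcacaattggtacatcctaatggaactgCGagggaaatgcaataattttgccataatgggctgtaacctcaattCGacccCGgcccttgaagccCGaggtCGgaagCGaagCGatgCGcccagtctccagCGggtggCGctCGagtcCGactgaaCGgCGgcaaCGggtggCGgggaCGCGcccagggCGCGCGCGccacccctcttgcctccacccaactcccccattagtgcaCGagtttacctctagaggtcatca
Hoxb4, chr11:96318017-96318316 (+ strand): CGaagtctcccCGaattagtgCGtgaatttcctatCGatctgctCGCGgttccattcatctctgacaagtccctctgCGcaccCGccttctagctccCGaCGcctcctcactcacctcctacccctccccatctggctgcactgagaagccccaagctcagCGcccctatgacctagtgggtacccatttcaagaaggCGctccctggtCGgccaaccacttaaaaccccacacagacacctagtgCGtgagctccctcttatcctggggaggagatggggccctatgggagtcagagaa
The starts of Hoxd12 and Hoxd4 had no H3K4me3 peak within 1 kb in any library.
Hoxd12, chr2:74674763-74675062 (+ strand): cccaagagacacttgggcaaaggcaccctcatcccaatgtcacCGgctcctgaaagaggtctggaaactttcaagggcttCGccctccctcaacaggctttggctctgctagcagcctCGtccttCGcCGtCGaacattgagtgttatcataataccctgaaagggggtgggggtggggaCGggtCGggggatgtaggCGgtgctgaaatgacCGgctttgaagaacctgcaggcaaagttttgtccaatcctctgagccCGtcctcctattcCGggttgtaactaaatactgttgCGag
Hoxd4, chr2:74721728-74722027 (+ strand): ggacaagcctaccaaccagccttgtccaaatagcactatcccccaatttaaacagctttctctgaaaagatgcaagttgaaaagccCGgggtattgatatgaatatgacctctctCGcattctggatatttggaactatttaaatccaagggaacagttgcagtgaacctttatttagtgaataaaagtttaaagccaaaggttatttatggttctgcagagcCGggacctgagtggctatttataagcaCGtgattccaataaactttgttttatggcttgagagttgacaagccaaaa

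The Hoxa13 promoter held 45 CpGs, and the Hoxd1 and Hoxa5 promoters 29 each. The Hoxb4 promoter held 14, Hoxd12 13, Hoxd8 6 and Hoxd4 4. The 24 promoter entries of 22 Hox genes had a median of 14.5 CpGs, against 7 over 32851 promoters of the same length, and 50% of the Hox entries against 34.6% of all promoters had 15 or more. The 3 entries of members with H3K4me3 in no library held 4 to 13 CpGs. The other patterns overlapped this range. Entries of members marked in all 8 libraries held 6 to 45, and of those marked in both P0 libraries only 9 to 29. Entries of members marked in 1 P0 library only held 4 to 26, and of those with other patterns 4 to 37. The Hoxd8 entry held 6 CpGs, but the H3K4me3 summits of Hoxd8 in 6 of 8 libraries lay 748 to 921 bp downstream of the start. They thus lay outside the printed bases.

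H3K4me3 at Hox starts differed between P0 and later ages. A start counted as marked when a peak came within 1 kb of it. At P0, 23 of 38 Hox starts were marked in both libraries, which is 60.5% against 62.8% of all coding starts. The share of marked Hox starts was therefore close to the background at birth. Both P14 libraries marked 7 Hox starts, against 61.4% of all coding starts. Both P21 libraries marked 4, against 60.4%. At P12 the single wild-type library marked 9 Hox starts (63.1% of all coding starts). Leaving out P21 replicate 2 raised the P21 count to 8, since this library marked 4 Hox starts and replicate 1 marked 8. The all-gene shares moved by less than 3 percentage points across ages.

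The Hox peaks at P0 were low. Peak height is the fold enrichment over background that the authors list for each peak, and a start without a peak has height 0. The mean P0 height of the 23 marked Hox starts ran from 3.44 to 17.8 with a median of 9.66, whereas the median over 9306 coding starts marked in both P0 libraries was 38.8. Under a restriction to the strongest 50% of peaks of each library, no Hox start was marked at any age. The Hox counts therefore rest on the weaker part of each list. In the later lists 5% of peaks were at or below a height of 3.70 to 4.0, and in the P0 lists at or below 3.79 and 3.8. P21 replicate 2 had the lowest median height at coding starts, 23.8, against 37.1 and 38.3 at P0. Whether low P0 peaks fell below the threshold of the later lists was not tested.

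**Figure D2:**
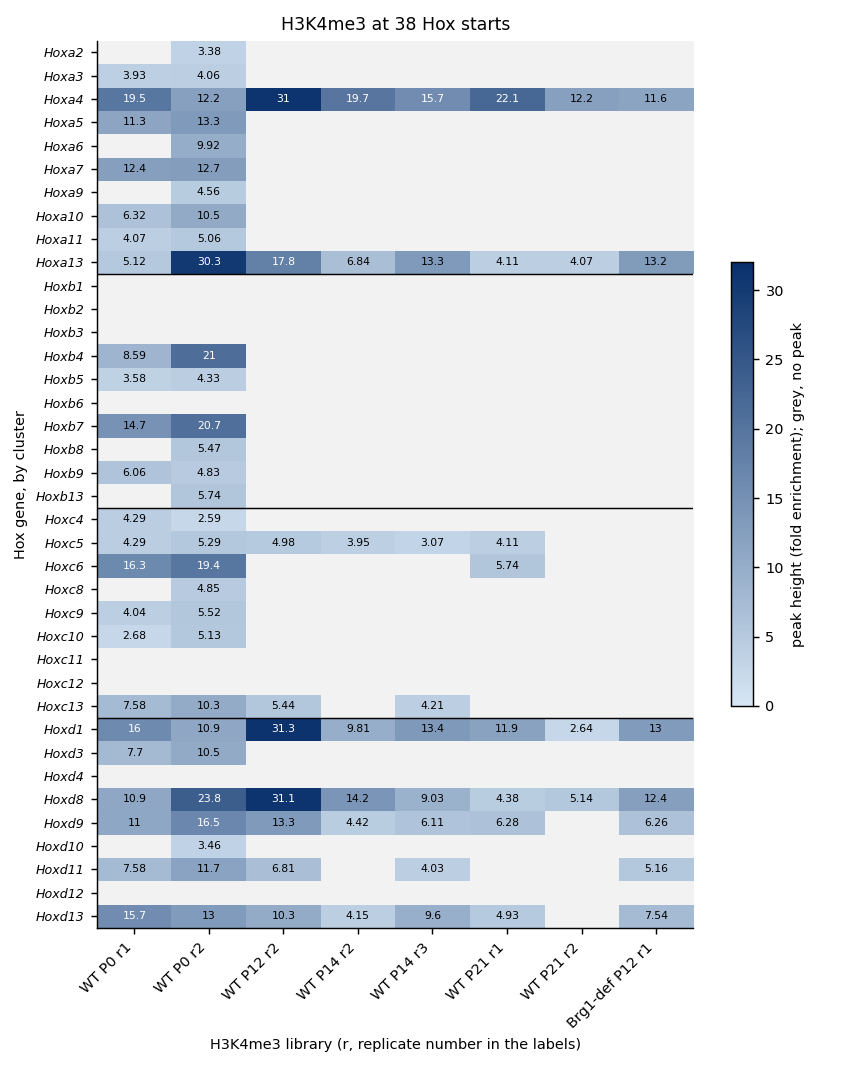
H3K4me3 peak height (fold enrichment, colour and number) within 1 kb of each of the 38 Hox starts (rows, by cluster) in the 8 H3K4me3 libraries (columns; r, replicate number; grey, no peak). The P0 columns are filled in rows of all 4 clusters, and at later ages the Hoxb rows are empty while Hoxa4, Hoxa13, Hoxd1 and Hoxd8 have a value in every column.

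By pattern, 4 members were marked in all 8 libraries, 13 in both P0 libraries and no other, 7 in 1 P0 library and no other, 6 in other combinations and 8 in none. Over all coding starts, 59.7% were marked in all 8 libraries and 64.3% in at least 1. The 7 marked in a single P0 library (Hoxa2, Hoxa6, Hoxa9, Hoxb8, Hoxb13, Hoxc8 and Hoxd10) were all marked in replicate 2, with heights of 3.38 to 9.92. For Hoxb8 the same region held a peak of 4.29 in replicate 1, just past 1 kb. The 8 without a peak within 1 kb in any library were Hoxb1, Hoxb2, Hoxb3, Hoxb6, Hoxc11, Hoxc12, Hoxd4 and Hoxd12. A region 1724 bp from the Hoxd12 start held peaks in both P0 libraries and in 4 later ones, with heights of 3.12 to 9.85. For 5 of these 8 (Hoxb2, Hoxb3, Hoxb6, Hoxc11 and Hoxc12) the start was taken as the outer end of the gene, because no promoter entry was given, and a start inside the gene would be missed. The listed starts of Hoxa3 and Hoxb3 lie beyond neighbouring Hox genes, so nearer starts of these genes were not counted. With the whole gene and 1 kb on both sides counted, 28 Hox genes were marked at P0.

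Hoxa4, a paralog group 4 gene of the cervical region, had H3K4me3 heights of 19.5 and 12.2 at P0, 19.7 and 15.7 at P14, and 22.1 and 12.2 at P21. The ranges of the 3 ages overlapped. Against P0 the scaled height differed by 0.24 ± 0.28 at P14 and 0.05 ± 0.28 at P21 (log2 with SE, limma, adjusted p = 0.772 and 0.967, n = 2 libraries per age). Hoxa4 was thus the one member of the 4 whose P21 heights did not lie below the P0 mean in both libraries.

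Hoxd1, the only paralog group 1 gene of the Hoxd cluster, had heights of 16.0 and 10.9 at P0, 9.81 and 13.4 at P14 and 11.9 and 2.64 at P21. Hoxd8, a trunk gene, had 10.9 and 23.8 at P0, 14.2 and 9.03 at P14 and 4.38 and 5.14 at P21. Hoxa13, the most posterior Hoxa gene, which patterns the distal limb and the urogenital tract, had 5.12 and 30.3 at P0, 6.84 and 13.3 at P14 and 4.11 and 4.07 at P21. For Hoxd8 and Hoxa13 both P21 heights lay below both P0 heights, and the P0 replicates themselves differed widely. The P21-P0 differences were -0.64 ± 0.27 for Hoxd1, -0.89 ± 0.32 for Hoxd8 and -0.86 ± 0.41 for Hoxa13 on the log2 scale (SE, limma). None passed the limma test, with adjusted p = 0.208, 0.128 and 0.283.

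**Figure D3:**
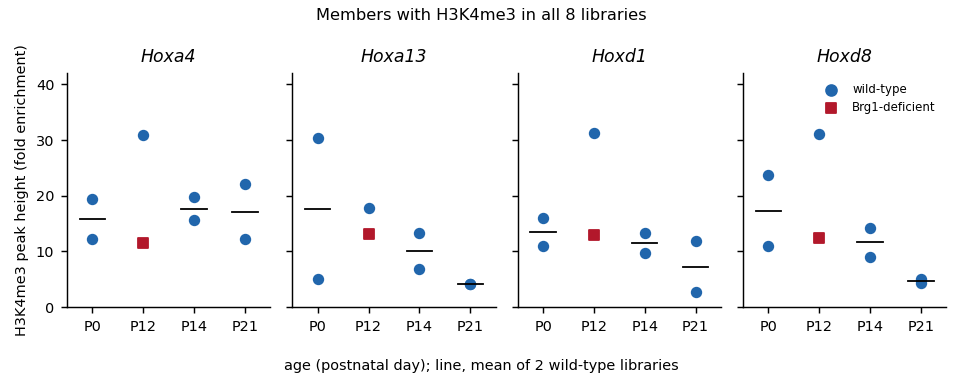
H3K4me3 peak height (fold enrichment) by age for the 4 members with a peak in all 8 libraries, with 1 circle per wild-type library, 1 square for the Brg1-deficient library and a line at the mean of 2 libraries. Hoxd8 and Hoxa13 sit between 4.07 and 5.14 at P21, and the wild-type P12 circles of Hoxa4, Hoxd1 and Hoxd8 sit at 31.0 to 31.3. Heights are not scaled between libraries.

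Among the members marked only at P0, Hoxb7 had heights of 14.7 and 20.7 and Hoxb4 of 8.59 and 21. Hoxa5, which is needed for lung and airway development, had 11.3 and 13.3, and Hoxa7 had 12.4 and 12.7. Hoxd3 had 7.70 and 10.5, and Hoxa10, a gene of the reproductive tract, 6.32 and 10.5. None of these 6 genes had a peak in any of the 6 libraries of P12, P14 and P21. The other 7 of this pattern (Hoxa3, Hoxa11, Hoxb5, Hoxb9, Hoxc4, Hoxc9 and Hoxc10) had P0 heights of 2.59 to 6.06, the highest being Hoxb9 at 6.06 and 4.83. A peak of 4.98 in the wild-type P12 library lay just past 1 kb from the Hoxb9 start.

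Of the remaining members, Hoxc6 had heights of 16.3 and 19.4 at P0 and 5.74 in P21 replicate 1, with no peak within 1 kb in the other libraries. Its absence at P12 and P14 depended on the window, since the merged region 458 bp downstream of the listed Hoxc6 start also held peaks just past 1 kb, with heights of 13.8 in the wild-type P12 library and 4.29 and 5.67 at P14. Hoxd9 and Hoxd13, which pattern the limb, were marked in 7 of 8 libraries. Hoxd13 had 15.7 and 13.0 at P0, 4.15 and 9.60 at P14 and 4.93 and 0 at P21. Hoxd9 had 11.0 and 16.5 at P0, 4.42 and 6.11 at P14 and 6.28 and 0 at P21. For both genes every P14 and P21 height lay below every P0 height. Hoxc5 was low throughout, at 4.29 and 5.29 at P0 and at 3.95, 3.07, 4.11 and 0 in the P14 and P21 libraries. Hoxc13, a gene of hair and nail, had 7.58 and 10.3 at P0 and 4.21 in P14 replicate 3. Hoxd11 had 7.58 and 11.7 at P0 and 4.03 in P14 replicate 3.

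Scaled heights were compared across ages with limma on log2(height + 7.66) over all 9423 coding starts with a peak in at least 2 of the 6 libraries. Of the 38 Hox starts, 23 entered the test, and 13 of them had peaks at P0 only, so that these 13 had to be lower later and equal between P14 and P21, and their calls are a description and not evidence of a fall. Between P0 and P14, 6 Hox starts were called lower at an adjusted p under 0.05 and 0 higher, where 1.25% of all tested starts were called lower and 0.573% higher. These were Hoxc6 (-1.70 ± 0.27, adjusted p = 0.00561, with the P14 peaks just outside the window), Hoxb7 (-1.68 ± 0.26, adjusted p = 0.00449), Hoxb4 (-1.46 ± 0.29, adjusted p = 0.0213), Hoxa7 (-1.37 ± 0.25, adjusted p = 0.0119), Hoxa5 (-1.35 ± 0.25, adjusted p = 0.0135) and Hoxd3 (-1.10 ± 0.25, adjusted p = 0.045). Between P0 and P21, 11 were called lower and 0 higher, where 5.19% of all tested starts were called lower and 0.849% higher. They were the same 6 and Hoxa10, Hoxc13, Hoxd9, Hoxd11 and Hoxd13, with log2 differences of -1.03 to -1.25 for these 5. The other 10 had a P14 or P21 peak, and of these 1 was called at P14 (Hoxc6) and 5 at P21 (Hoxc6, Hoxc13, Hoxd9, Hoxd11 and Hoxd13). Hoxc6 had no peak within 1 kb at P14, and Hoxc13 and Hoxd11 had none at P21. Those calls could therefore only be lower as well. The calls with a peak at the later age were those of Hoxc6, Hoxd9 and Hoxd13 at P21, each with a peak in replicate 1 only. The log2 differences of these 10 ran from -1.70 to 0.24 at P14 and from -1.43 to 0.05 at P21. Between P14 and P21, 0 of these 10 Hox starts were called in limma, 2 had an unadjusted p under 0.05, and 0.0106% of all tested starts were called higher and 0 lower.

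The counts depended on the settings. Without scaling between libraries 0 Hox starts were called by limma at either age (7 and 11 with an unadjusted p under 0.05), and a pseudocount of 1 raised the counts to 14 and 18. Over starts with a peak in all 6 libraries, which leaves 4 Hox starts, 0 were called by limma, and 0 (P14) and 3 (P21) had an unadjusted p under 0.05. Without 1 of the P0 libraries the starts with P0 peaks only did not enter, and 10 Hox starts were tested. The P14 count was then 1 of 10 without P0 replicate 1 and 1 of 10 without P0 replicate 2, and of 23 it was 2 without P14 replicate 2 and 2 without P14 replicate 3. The P21 count was 6 of 10 without P0 replicate 1 and 2 of 10 without P0 replicate 2, and of 23 it was 2 without P21 replicate 1 and 1 without P21 replicate 2.

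The presence of a peak was also followed without a test, from both P0 libraries to the later ages. Of the 23 Hox starts marked in both P0 libraries, 14 (60.9%) had no peak in either P14 library and 15 (65.2%) had none in either P21 library. Over all 9306 coding starts marked in both P0 libraries, 1.89% and 1.72% had none. Among 1894 other starts that lay inside an H3K27me3 island in both P0 libraries, the shares were 4.44% and 4.07%. Low peaks were lost more often. Among 547 other island starts whose P0 height was no higher than that of the highest Hox start, the shares were 14.1% and 13.3%, and outside islands they were 16.8% and 14.9% of 422. Both sets were only capped at that height, 17.8, and were not matched to the Hox heights, whose median was 9.66. The Hox share was higher than each of these shares. The starts of 1 cluster are neighbours and not independent, so no test of the difference was made. Of the 1894 island starts, 83.2% had an H3K27Ac peak in at least 1 library, against 0 of 38 Hox starts, so the sets were unlike in acetylation. Among 7 marked developmental transcription factors of tissues outside the retina, given below, 4 had no P14 peak and 4 no P21 peak. A high share was thus not particular to Hox starts. With the same number of peaks taken from each library, 9 of 16 Hox starts were lost by P14 and 11 of 16 by P21.

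**Figure D4:**
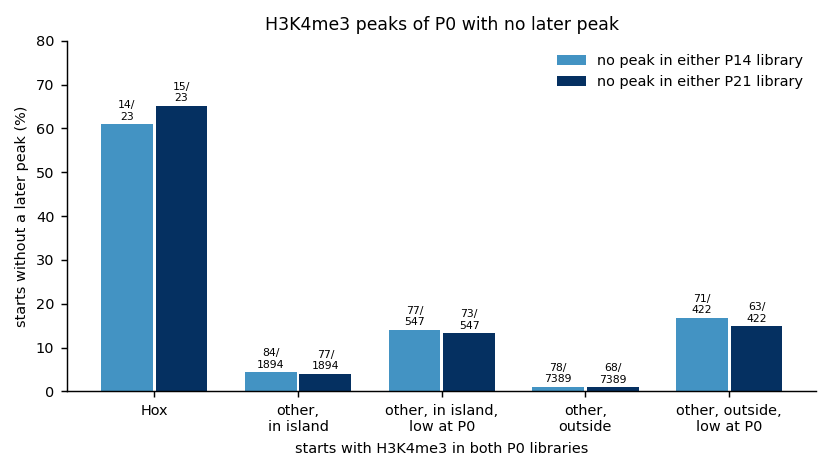
Share (%) of starts marked by H3K4me3 in both P0 libraries that had no peak in either P14 library (light) or either P21 library (dark), for Hox starts, for other starts inside or outside an H3K27me3 island, and for those among them with a P0 height no higher than the highest Hox start (low at P0). Counts stand above the bars, with 60.9% and 65.2% for Hox starts and at most 16.8% and 14.9% in the other sets drawn, of which the island set was mostly acetylated.

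Peaks across each cluster, and not at starts alone, gave the same picture. The 4 clusters held 51 and 57 H3K4me3 peaks in the P0 libraries, 10 and 14 at P14, 13 and 5 at P21, 19 in the wild-type P12 library and 11 in the Brg1-deficient P12 library. They covered 33.1 and 47.1 kb at P0 and 3.6 to 12.4 kb in the later libraries. In the Hoxb cluster, which held 14 and 16 H3K4me3 peaks at P0, the P12 wild-type library held 1 peak and the other 5 later libraries held 0. The Hoxd cluster held 14 and 13 at P0 and 2 to 8 later.

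Merged over the 8 libraries, the H3K4me3 peaks formed 58 regions, of which 37 lay within 1 kb of a Hox start. Of these regions, 40 were present at P0 only, 18 had a later peak and 0 were present at later ages only. In both P0 libraries together, 43 regions were marked, and 25 of the 43 had no later peak. There were 5 regions present in all 8 libraries, and 4 of them lay at the starts of Hoxa4, Hoxa13, Hoxd1 and Hoxd8. The fifth lay at chr6:52171004-52172157 (mm9), 2.44 kb upstream of the listed Hoxa7 start and between Hoxa7 and Hoxa9. Its heights were 20.7 and 28.9 at P0, 12.6 and 16.7 at P14 and 19.5 and 10.8 at P21. These heights were higher than those of the Hoxa7 start itself, which had no peak after P0. The maps of the 4 clusters show the 5 regions as blue columns that run through all H3K4me3 rows.

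**Figure D5:**
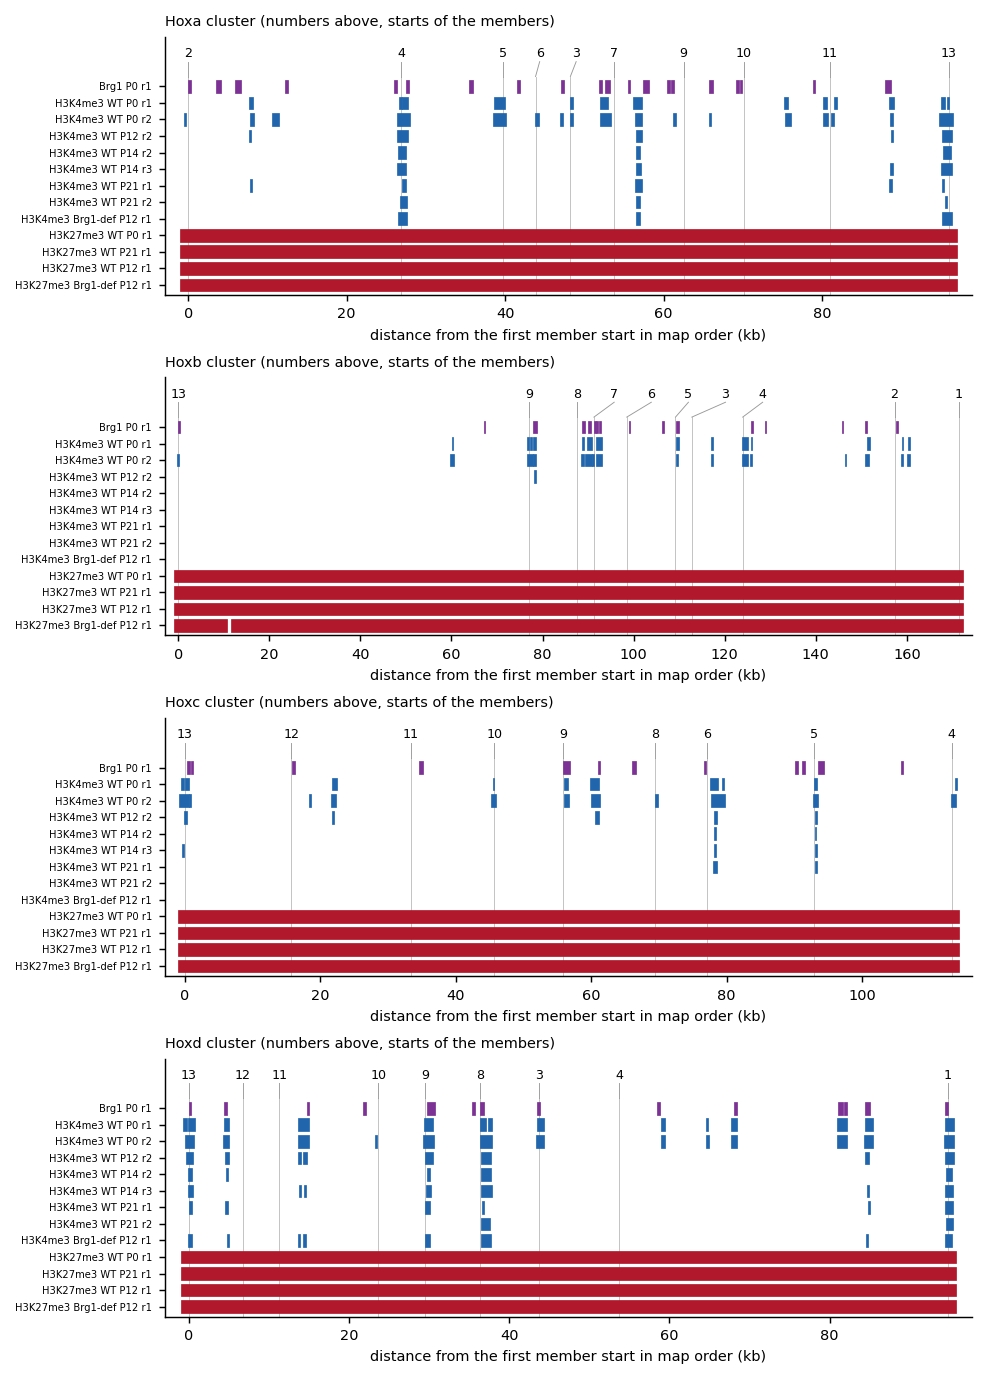
Brg1 peaks (purple), H3K4me3 peaks (blue) and H3K27me3 islands (red) across each cluster, by distance from the first member start in map order (kb), with grey lines and numbers at the starts of the Hox genes and 1 row per library (4 of the 9 H3K27me3 libraries are drawn). In the Hoxb map the blue marks end after P0 apart from 1 peak at P12, and the island of the Brg1-deficient P12 library has a gap near Hoxb13.

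H3K27Ac was not detected at any Hox gene. None of the 38 Hox starts had an H3K27Ac peak in any of the 9 libraries, where 62.3% of coding starts had one in at least 1 library. In every library of a group, the share of coding starts was 50.3% at P0, 38.3% at P14, 32.4% at P21, 54.8% in the wild-type P12 library and 55.4% in the Brg1-deficient P12 libraries. The lists also held 0 peaks across the whole of the 4 clusters in every library. This was not general for starts in H3K27me3 islands, as 1643 of 2326 other starts inside an island in both P0 libraries (70.6%) had an H3K27Ac peak in at least 1 library. With no peak, 0 Hox starts entered the limma comparisons of H3K27Ac, and no change with age or with Brg1 could be measured. The lists give peaks and not reads, so acetylation below the peak threshold was not detectable.

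H3K27me3 covered all 4 clusters at every age. The authors list H3K27me3 as islands, which are runs of enriched windows, each with a whole-number score whose meaning the sources used here do not give. All 38 Hox starts lay inside an island in all 9 libraries, whereas 11.1% of coding starts did. In 8 libraries each cluster lay inside a single island. These islands were long, with 190.4 to 193.2 kb at Hoxa, 273.2 to 308.0 kb at Hoxc and 120.4 to 180.2 kb at Hoxd, whereas the median island of a library was 3.4 to 5.8 kb. Ranked by score within a library, the Hoxc island was always among the first 3, the Hoxa island at rank 3 or 4, and the Hoxd island at rank 4 to 6 of 12188 to 30996 islands. The Hox islands held 1.49% to 3.30% of the summed island score of a library on 0.441% to 0.885% of the island length.

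The Hoxb, Hoxc and Hoxd islands were longer at P14 and P21 than at P0, without overlap between libraries. The Hoxb island was 247.8 and 243.6 kb long at P0, 312.2 and 299.4 kb at P14 and 313.4 and 302.8 kb at P21. It reached 23.3 and 21.3 kb past the Hoxb1 start at P0 and 61.7 to 66.7 kb past it at P14 and P21. The P0 libraries did not overlap the later ones in this reach. The Hoxc island was 275.0 and 273.2 kb long at P0 and 284.2 to 297.4 kb at P14 and P21, and the Hoxd island 142.6 and 144.8 kb at P0 and 150.0 to 180.2 kb later. The lengths of the Hoxa island overlapped, at 190.4 and 193.2 kb at P0 and 190.4 to 193.0 kb at P14 and P21. The P0 libraries also held less island length in all, with 96.7 and 114.1 Mb against 126.6 to 213.3 Mb later, and the part of this difference in the island lengths was not tested.

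Brg1 peaks were present at 22 of 38 Hox starts at P0 (57.9%), close to the 54.3% of all coding starts. By cluster, 5 of 10 Hoxa starts, 6 of 10 Hoxb starts, 5 of 9 Hoxc starts and 6 of 9 Hoxd starts had one. Their heights ran from 2.95 to 5.91 with a median of 4.22, against a median of 5.91 over all coding starts with a Brg1 peak. The highest were Hoxb9 and Hoxc12 at 5.91, Hoxd8 at 5.34, Hoxa7 at 5.06 and Hoxd13 at 4.78. Hoxa2 and Hoxb7 had 4.50, and Hoxb2, Hoxb13, Hoxc5, Hoxd3 and Hoxd11 had 4.22. Hoxb5 had 4.05, Hoxd1 4.0, and Hoxa4 and Hoxc9 3.94. The lowest were Hoxb6 at 3.93, Hoxc13 at 3.66, Hoxa3 at 3.55, Hoxa10 at 3.37, Hoxd9 at 3.16 and Hoxc6 at 2.95. With 1 library these heights have no replicate error. Under the strongest 50% of Brg1 peaks, 7 Hox starts had one.

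Brg1 and H3K4me3 coincided at many but not all Hox starts. Of the 23 Hox starts marked by H3K4me3 in both P0 libraries, 17 had a Brg1 peak (73.9%), against 83.3% of all coding starts so marked and 74.8% of the other island starts so marked. Hoxa5, Hoxa11, Hoxa13, Hoxb4, Hoxc4 and Hoxc10 had H3K4me3 in both P0 libraries and no Brg1 peak. Hoxb2, Hoxb6 and Hoxc12 had a Brg1 peak and no H3K4me3 peak within 1 kb, so that 3 of the 8 Hox starts without H3K4me3 in either P0 library had Brg1 (37.5%), against 4.83% of all coding starts and 16.3% of other island starts without it. These 3 starts were taken from the outer gene end, and the share rests on them and on 1 Brg1 library. A region with H3K4me3 in both P0 libraries lay 1382 bp from the Hoxb2 start. Of the 4 members marked by H3K4me3 in all libraries, Hoxa4, Hoxd1 and Hoxd8 had a Brg1 peak and Hoxa13 had none. Across the clusters there were 62 Brg1 peaks that covered 29.2 kb, and 30 of the 58 H3K4me3 regions overlapped one.

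Brg1-deficient retinae were compared with wild-type retinae at P12 to ask whether the marks at Hox genes differ without Brg1. With 1 wild-type library per active mark there is no replicate error and no test, and a value was called different at 2-fold on the log2(scaled height + 8.53) scale. The Brg1-deficient library marked 7 Hox starts by H3K4me3 (61.7% of all coding starts) and the wild-type library 9. All 7 were among the 9, and Hoxc5 and Hoxc13, at 4.98 and 5.44 in the wild-type library, had no peak in the Brg1-deficient one. On this scale 4 of the 9 (Hoxc5, Hoxc13, Hoxd11 and Hoxd13) had a wild-type value too low to reach 2-fold lower even without a peak. No Hox start was called lower or higher, where 0.736% of all coding starts with a peak were called lower and 0.822% higher. With a pseudocount of 1, 2 Hox starts were called lower, and at 1.5-fold or with a window of 2 kb 1 was. Across the whole Hoxc cluster the wild-type library held 5 H3K4me3 peaks, up to a height of 13.8, and the Brg1-deficient library held 0. The counts were 5 and 3 in the Hoxa cluster, 1 and 0 in Hoxb, and 8 and 8 in Hoxd. These counts rest on 1 library each, with 22846 peaks in the wild-type and 19495 in the Brg1-deficient list, and their cause was not tested. For H3K27Ac, 0.776% were called lower and 1.53% higher, and no Hox start had a value.

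The 3 highest wild-type values at P12 differed most in height. Hoxd1 had 31.3 in the wild-type and 13.0 in the Brg1-deficient library, Hoxd8 31.1 and 12.4, and Hoxa4 31.0 and 11.6. The wild-type library was higher as a whole, with a median height at coding starts of 53.9 against 36.1. After scaling the values were 25.5 and 16.0 for Hoxd1, 25.2 and 15.3 for Hoxd8 and 25.2 and 14.3 for Hoxa4. Hoxa13 had 14.4 and 16.2 after scaling, Hoxd13 8.38 and 9.27, Hoxd11 5.53 and 6.34, and Hoxd9 10.8 and 7.69. Lower values in the Brg1-deficient library were thus seen at 4 of 7 starts with a peak in both libraries and higher values at 3. Over all 9 Hox starts with a value, 6 were lower and the median log2 difference was -0.47, against 0.01 over coding starts. Hoxc5 and Hoxc13 had a value through the wild-type library alone and could only be lower, so these 2 figures are partly fixed by that. Over the 7 with a peak in both libraries the median was -0.26, against 0.02. The unscaled wild-type P12 heights of Hoxa4, Hoxd1 and Hoxd8 also exceeded those of the P0, P14 and P21 libraries. The median height at coding starts was 37.1 and 38.3 at P0, 33.2 and 34.5 at P14, and 62.3 and 23.8 at P21. P12 was not scaled together with these ages, so no P12 maximum can be read from these heights.

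H3K27me3 was present at all 38 Hox starts in the Brg1-deficient P12 library and in both wild-type P12 libraries. The Hoxb cluster lay in 1 island of 302.6 and 298.0 kb in the wild-type libraries. In the Brg1-deficient library it was split into islands of 62.0 and 224.8 kb, with Hoxb13 alone in the shorter one, and 99.54% of the cluster was covered. The Hoxa, Hoxc and Hoxd clusters were covered in full in all 3 P12 libraries. The split rests on 1 library, and whether Brg1 or depth bears on it was not tested. The Smarca4 start, the gene of Brg1, had H3K4me3 unscaled heights of 31.4 in the Brg1-deficient and 66.1 in the wild-type P12 library, and H3K27Ac heights of 16.0 and 18.6 against 14.7, but a promoter peak does not show whether the floxed part was deleted.

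Other gene lists gave a comparison for these patterns. Of 8 measured developmental transcription factors of tissues outside the retina, all 8 lay in an island in all 9 H3K27me3 libraries. At P0, 7 of the 8 were marked by H3K4me3 in both libraries, and 4 of the 7 had no peak in either P14 or either P21 library. In limma, 3 of 7 tested were called lower at P14 (Lhx8, Nkx2-1 and Pax9) and 5 at P21 (these and Pax1 and Pax7). Of all tested starts, 1.25% and 5.19% were called lower. The 4 starts without a later peak could only be lower, so calls among them are a description. One of the 8 had an H3K27Ac peak in any library. Loss of H3K4me3 inside islands was thus also seen outside the Hox clusters.

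All 10 measured homeobox genes of the retina, such as Pax6, were marked by H3K4me3 in all 8 libraries, and all 10 had H3K27Ac in at least 1 library. In limma, 2 of the 10 were called lower at P14 (Lhx9 and Pax6) and 4 at P21 (these and Isl1 and Vsx1), against 1.25% and 5.19% of all tested starts. Of the TALE cofactors, homeodomain partners of Hox proteins, all 5 measured were marked by H3K4me3 in all 8 libraries and by Brg1, and 0 were called in limma. All 14 measured Polycomb subunit genes and all 4 measured Trithorax genes were marked by H3K4me3 in all 8 libraries, and 0 of either list were called. Of the caudal and ParaHox genes only 1 could be measured; it had no H3K4me3 peak in both libraries of any age.

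The tissue label was checked against markers. All 5 measured retina markers had H3K4me3 in all 8 libraries. None of the 2 endothelium, 3 microglia and blood and 2 muscle markers had an H3K4me3 peak in any library, and 1 of 5 lens and 1 of 2 pigment epithelium markers had one in all 8. An H3K27Ac peak in at least 1 library was present at 5 of 5 retina, 2 of 2 pigment epithelium and 1 of 5 lens markers. The endothelium, microglia and blood and muscle markers had none. Peaks of a minor cell type would not stand out in whole retina, and fewer cells with a mark cannot be told apart from less of the mark per cell. The number of peaks per library was 18534 to 24124 for H3K4me3, 17433 to 50005 for H3K27Ac and 50861 for Brg1, and the depth in reads is unknown.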

How the data were processed

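ChIP-Seq was performed by the study on retinae of the groups given above. Per the submitters' processing notes, the lists are on mm9, and BWA 0.5.9-r26, Picard 1.65, MACS2 2.0.9, SICER 1.1 and bedtools 2.17.0 are named, with no role given. The authors deposited 18 peak lists, 1 per library, with a fold enrichment (height), a −log10 p-value and a −log10 q-value for each peak, and a score that was not used as a height. They also deposited 9 lists of H3K27me3 islands with a whole-number score. The 8 input samples have no list used here. Peak calling depends on depth, so an absent peak is not an absent mark.

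Starts were taken from the RefSeq promoter table (GRCm38.p6) for 22 members and from the outer gene end for 16, and moved to mm9 by a local offset over coding genes within 5 Mb. The offset puts most starts within 1 kb of P0 H3K4me3 peaks and was then centred over both strands. With it, 62.8% of starts lay within 1 kb of such a peak, against 8.9% without it and 6.6% with starts moved by 50 kb. It was set on the P0 H3K4me3 lists, which also serve as a readout.

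Each start received the highest peak within 1 kb. Heights were scaled on the median of starts with a peak in every library and compared with limma 3.58.1 in R 4.3.3 on log2(height + pseudocount), the pseudocount being the 5th percentile of heights (3.26 for H3K27Ac and 7.66 for H3K4me3), with Benjamini-Hochberg adjustment over all starts tested. This scale understates the change of low starts. In simulated heights with 200 changed starts, 175 of H3K4me3 were recovered, and 0 of H3K27Ac with the filter used, against 168 over starts with a peak in all 6 libraries. Python 3.11.15 with pandas 2.3.3 was used otherwise. Merged regions and the loss after P0 were examined after the values were seen. The members and gene lists were chosen with earlier results of these data known. The rule for genes named was a Brg1 or H3K27Ac peak, one of the 3 highest P0 H3K4me3 heights of a cluster, a limma call, or H3K4me3 in all or no libraries, and beyond it all members are accounted for.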

Additional observations from a re-analysis of the deposited data

How the results depend on the processing

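Starts on mm9 were placed by an offset, replicates are 2 at most, and the depth in reads is unknown, so counts of absent peaks are bounded by the weakest peaks called. The 92 alternatives for H3K27Ac and the 22 for H3K27me3 left every count at 0 or 38, where no peak or a whole-cluster island leaves little room to move. Counts of Hox starts with H3K4me3 moved to 0 at P0, P12, P14 and P21 and in the Brg1-deficient library with the strongest 50% of peaks, and the Brg1 count moved to 7. The P21 count of 4 moved to 2 with the offset of the highest count, 2 with the same number of peaks per library and 8 with either replicate, and leaving out a replicate gave 4 to 8. Leaving out a replicate gave 23 to 30 at P0 and 7 to 9 at P14. Starts lost by P14 moved from 14 to 9 with the same number of peaks per library, and leaving out a library gave 14 to 21 by P14 and 15 to 22 by P21. The limma counts moved to 14 (P14) and 18 (P21) with a pseudocount of 1, to 0 and 0 with only starts that have a peak in all 6 libraries, to 0 and 0 with no scaling, and at P21 to 5 with no filter. Leaving out a library gave 1 to 5 calls at P14 and 1 to 11 at P21. At P12 the count of 0 moved to 1 with a 1.5-fold change, 2 with a pseudocount of 1 and 1 with a window of 2 kb. Of the 121 alternatives for H3K4me3 and Brg1, 92 stayed within 1.5 times the count and 29 moved. The cause of these moves was not tested. The alternatives with the whole gene, the highest-count offset, equal peak numbers, the block over 6 libraries and those on loss were chosen after seeing the data.

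With the replicate number as a block, 14 Hox starts were called lower between P0 and P21 for H3K4me3, against 11 without it, and 0 for H3K27Ac in each comparison. The deviations of same-numbered libraries correlated with r = 0.17 for H3K4me3 (P0 and P21), and for H3K27Ac with r = 0.01 (P0 and P14), 0.01 (P0 and P21) and 0.25 (P14 and P21), so the numbers were not taken to pair the libraries. P14 shares 1 replicate number with the other ages for H3K4me3, so a block over all 6 libraries leaves P14 replicate 3 without weight and 1 residual degree of freedom. It called 9 Hox starts lower between P0 and P14, against 6, and 0 between P14 and P21 (0 with an unadjusted p under 0.05 in limma). The P14 H3K4me3 lists are titled replicates 2 and 3 but numbered 1 and 2 in their own names, and the titles were followed.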

Other observations

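The Hox clusters also hold microRNA genes, and 6 of them lay within the regions examined. All 6 hairpins (Mir10a, Mir10b, Mir196a-1, Mir196a-2, Mir196b and Mir615) lay in an H3K27me3 island in all 9 libraries, and none had an H3K27Ac peak within 1 kb in any library. Mir10a, beside Hoxb4, had H3K4me3 within 1 kb in both P0 libraries and in no later library. Mir615, in the Hoxc cluster, had it in both P0 libraries and in 4 of the 6 later ones. Mir196b had it in 1 P0 library, and Mir10b, Mir196a-1 and Mir196a-2 in none. The mature miR-10a and miR-10b share their seed (bases 2 to 8, in capitals; RefSeq), although only the Mir10a locus had H3K4me3 at P0.
mmu-miR-10a-5p: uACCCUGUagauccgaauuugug
mmu-miR-10b-5p: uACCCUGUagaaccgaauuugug

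Among 10 measured genes beside the clusters, Evx1 and Evx2, homeobox genes next to Hoxa13 and Hoxd13, and Ttll6 had no H3K4me3 and no H3K27Ac peak in any library and lay in an H3K27me3 island in all 9. The other 7 were marked by H3K4me3 in all 8 libraries. These 3 genes were named after their values were seen.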
